A study of Homo sapiens with 6 samples.

Results

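The 73 windows labelled U1 were examined. Each is a 400 bp stretch laid over a start site of the gene, or of a copy of the gene, for U1 small nuclear RNA (snRNA). They were all rows of the deposited count table whose label, without its number, reads U1, and they are 73 of 53603 windows. Of them, 29 lay on chromosome 1 and 44 on other chromosomes. The libraries hold small RNA of HEK293T, an established line of human embryonic kidney origin, collected 48 h after transfection with RNAiMAX at 150 nM siRNA. The siControl arm received a control siRNA, and the siLa arm received one that targets La, a protein that binds RNA and is the product of SSB. Each arm had 3 libraries, described as biological replicates in the study's design text, and all 6 came from the same cell line with the same protocol. The study asked how loss of La changes small RNA made at promoters.

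U1 snRNA is the RNA of the U1 snRNP, which pairs with the 5′ splice site of a new transcript and so starts spliceosome assembly. Its genes are transcribed by RNA polymerase II with the help of the SNAPc activator, the 3′ end is trimmed, and a ring of Sm proteins is loaded on the Sm site in the cytoplasm before the particle returns to the nucleus. La, by contrast, is known for holding the uridine tails of fresh transcripts of RNA polymerase III. The genome also holds variant U1 genes (RNVU1) and many dispersed copies classed as pseudogenes (names ending in P).

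A start site of a GENCODE release 29 snRNA transcript lay exactly 150 bp into 68 of the 73 windows, and the transcript's sequence was taken from that release. RefSeq names (GRCh38.p14) were used where GENCODE gives only an Rfam family name, and 2 windows had no name in either. The sequences below are those of RNU1-1 and of a selection of the other well-read copies. They are given 5′ to 3′ from GRCh38. In RNU1-1 (chr1:16514122-16514285, minus strand) the capitals mark the stretch that pairs with 5′ splice sites and the Sm site. In the others, capitals mark bases that differ from RNU1-1.
RNU1-1: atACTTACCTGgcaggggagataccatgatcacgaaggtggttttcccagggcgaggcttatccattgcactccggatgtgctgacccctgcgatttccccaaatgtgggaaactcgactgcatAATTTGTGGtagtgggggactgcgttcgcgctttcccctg
RNVU1-7 (chr1:148038753-148038916, minus strand): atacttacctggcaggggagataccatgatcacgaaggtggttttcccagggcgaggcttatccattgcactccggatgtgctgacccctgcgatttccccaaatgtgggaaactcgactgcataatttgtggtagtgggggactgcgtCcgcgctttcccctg
RNVU1-1 (chr1:148362370-148362533, minus strand): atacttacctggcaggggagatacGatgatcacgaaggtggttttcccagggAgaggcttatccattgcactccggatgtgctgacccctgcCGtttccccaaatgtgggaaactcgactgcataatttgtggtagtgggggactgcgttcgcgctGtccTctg
RNVU1-19 (chr1:120850819-120850985, minus strand): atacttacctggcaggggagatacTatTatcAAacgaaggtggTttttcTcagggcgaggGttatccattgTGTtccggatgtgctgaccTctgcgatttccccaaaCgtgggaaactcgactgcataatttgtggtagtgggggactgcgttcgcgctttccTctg
RNU1-11P (chr6:13214056-13214219, plus strand): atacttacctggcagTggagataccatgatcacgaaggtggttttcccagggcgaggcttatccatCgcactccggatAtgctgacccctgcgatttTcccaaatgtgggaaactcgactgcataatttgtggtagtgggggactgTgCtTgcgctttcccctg
RNU1-138P (chr4:113420323-113420486, plus strand): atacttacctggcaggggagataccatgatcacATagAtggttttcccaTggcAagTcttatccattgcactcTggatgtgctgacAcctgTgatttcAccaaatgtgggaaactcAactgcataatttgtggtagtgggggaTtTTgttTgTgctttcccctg
RNVU1-2A (chr1:144551779-144551943, minus strand): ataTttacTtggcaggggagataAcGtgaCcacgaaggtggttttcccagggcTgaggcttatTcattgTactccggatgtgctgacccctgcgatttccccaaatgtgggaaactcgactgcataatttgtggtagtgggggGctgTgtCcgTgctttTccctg

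Of the 68 transcripts, 8 were identical over all 164 bases. Besides RNU1-1 these were RNU1-2, RNU1-3, RNU1-4, RNVU1-18 and LOC124904613 on chromosome 1, and RNU1-27P and RNU1-28P on chromosome 14. A further 3, all on chromosome 1, differed from RNU1-1 at 1 or 2 bases. Counted from 1 at the 5′ end of RNU1-1, RNVU1-28 carried G37T, RNVU1-7 carried T150C, and RNVU1-31 carried A49T and C116T. The other 57 differed by 5 or more bases, counting substitutions and gap bases.

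Totals over all windows ranged from 3066299 to 4105806 counts a library. The targeted gene could be seen only at its start-site windows, which do not measure the mRNA. The SSB window PCG_40419 had 4, 3 and 3 counts in siControl replicates 1 to 3 and 1, 0 and 0 in siLa replicates 1 to 3, and the second, PCG_12982, had 0, 0 and 1 against 0, 2 and 0. The identity of the cell line could not be checked against mRNA markers for the same reason. The library of siControl replicate 1 often held the highest or the lowest level, in U1 windows as among all tested windows. Among the 38 U1 windows with enough reads to test, it had the highest scaled level of the 6 libraries in 16 and the lowest in 11. Among all 1064 tested windows the corresponding numbers were 378 and 287. The 16 U1 windows include the 8 identical copies, which can share reads. For the well-read windows, values are given with and without siControl replicate 1.

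The reads of U1 windows were concentrated in the exact copies. U1 windows held 417829 counts over the 6 libraries, of which the 8 exact copies had 73.4%, the 3 copies with 1 or 2 differences 15.7%, and the 57 more divergent copies 10.9%. Each exact copy had from 34994 to 41647 counts in all. The median divergent copy had 41 counts and the highest, RNU1-11P, 10060. All windows have the same length, so these totals can be set beside each other, but near-identical copies can share reads, and a count for a single copy is uncertain.

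Chromosome 1 did not hold all of the well-read windows. Its 29 windows had 77.0% of U1 counts, with 36.5% in the 4 windows of RNU1-1 to RNU1-4 and 40.4% in the 23 windows between 120 and 150 Mb. The 2 chromosome 14 windows had another 18.6%. RNU1-27P (chr14:34546714-34546877, plus strand), which RefSeq classes as a pseudogene, had the highest total of any U1 window. Its transcript is identical to RNU1-1 and can share reads with the other exact copies, so the total cannot be assigned to that locus. The remaining 42 windows on other chromosomes had 4.42%, most of it in RNU1-11P and RNU1-138P. The median window had 510 counts on chromosome 1 and 27.5 on other chromosomes. Windows with no read lay in both parts, 3 on chromosome 1 and 4 elsewhere, and RNU1-11P on chromosome 6 had 10060 counts. The division into chromosome 1 and other chromosomes therefore separates windows with many reads from windows with few only in part.

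**Figure D1:**
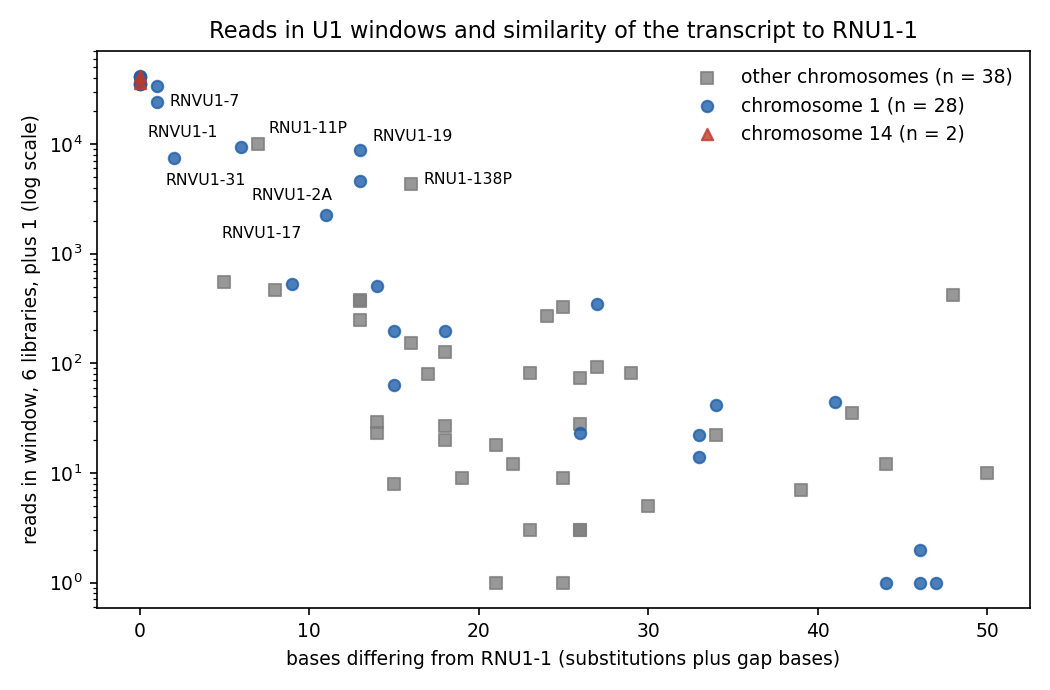
Each point is 1 of the 68 U1 windows with a matched transcript. The horizontal axis gives the number of bases that differ from RNU1-1 and the vertical axis, on a log scale, the reads in the window over 6 libraries plus 1. The exact copies on chromosomes 1 and 14 lie together at the top left, and windows with more than 20 differences all had fewer than 500 reads.

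Counts fell as the transcripts diverged from RNU1-1, as the plot of reads against differences shows. Spearman's rho between differences and total counts was -0.78 over the 68 windows and -0.68 over the 60 without the exact copies. This is a description across windows that share reads and libraries. The sequence ACTTACCTG (bases 3 to 11 of RNU1-1, the stretch that pairs with 5′ splice sites) was present in 27 of the 68 transcripts, and AATTTGTGG (bases 125 to 133, at the Sm site) in 48. Neither occurred on the opposite strand of a U1 transcript, and they do not overlap each other. For comparison, 1.26% and 1.09% of 1832 other GENCODE snRNA transcripts held them, and 0.188% and 0.168% of 35116 RefSeq promoter sequences of 300 bases on either strand. The median total was 7415 counts in the 27 windows with the first sequence, with a range from 0 to 41647, and 27 in the 41 without it. Of the 17 windows with over 1000 counts, 16 held both sequences. The exception was RNVU1-2A, which lacks the first. The 8 exact copies and the 3 copies with 1 or 2 differences are among the 27 windows and among the 16. A link of either sequence to reads, apart from similarity to RNU1-1, was not tested.

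The 8 exact copies fell into 2 levels that followed the strand of the gene. RNU1-2 had 12087, 5436 and 7010 counts in siControl replicates 1 to 3 and 5918, 4931 and 5929 in siLa replicates 1 to 3. RNU1-1 had 10417, 4780 and 5573, and then 5027, 4327 and 5233. RNU1-2, RNU1-4, LOC124904613 and RNU1-27P are on the plus strand and RNU1-1, RNU1-3, RNVU1-18 and RNU1-28P on the minus strand. In each of the 6 libraries every plus-strand copy had more counts than every minus-strand copy. The ratio of the strand means was between 1.12 and 1.26.

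Within a strand the 4 copies were close to each other in each library. Their variance divided by their mean, which is 1 on average for counts that differ by sampling alone, lay between 0.106 and 4.25 over the 12 sets of 4. Over all 8 copies together it lay between 18.7 and 94.1. The chromosome 14 copies sat among those of chromosome 1. The 8 windows thus give close to 1 shared value per strand and library, not 8 independent ones. How reads with several positions were assigned is not given in the sources used here, and the part that assignment plays in the strand difference was not tested.

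**Figure D2:**
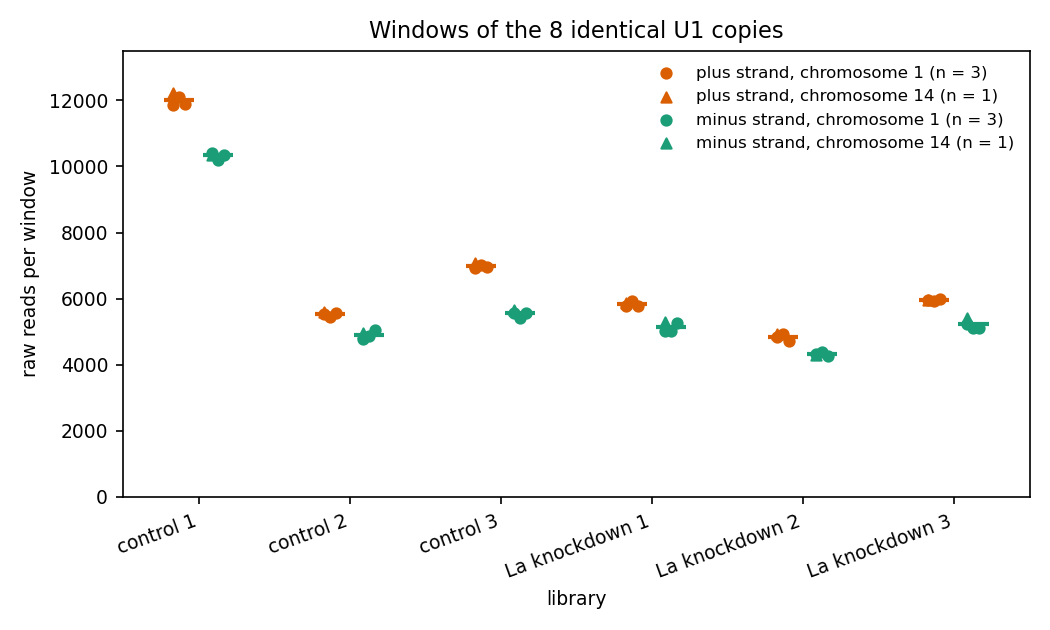
Raw reads in the windows of the 8 identical U1 copies (vertical axis) in each library (horizontal axis). Points are windows, circles on chromosome 1 and triangles on chromosome 14, and bars are strand means. Plus-strand copies lie above minus-strand copies in all 6 libraries, and control 1 lies above the other libraries.

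The share of a library taken by U1 windows did not separate the arms. It was 2.91%, 1.72% and 1.96% in siControl replicates 1 to 3 and 1.97%, 1.55% and 1.93% in siLa replicates 1 to 3. The highest value belongs to siControl replicate 1, and the other 5 overlap. The mean was 2.20% ± 0.628 in siControl and 1.81% ± 0.228 in siLa (SD, n = 3 each), and without siControl replicate 1 the siControl mean was 1.84%. In bulk RNA, fewer cells with U1 RNA and less U1 RNA per cell cannot be told apart. A lower share can also come from more reads in other windows.

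The same held on chromosome 1 and elsewhere. On chromosome 1 the share was 2.29%, 1.32% and 1.49% in siControl and 1.50%, 1.17% and 1.47% in siLa. On other chromosomes it was 0.616%, 0.400% and 0.462% in siControl and 0.470%, 0.378% and 0.455% in siLa. In CPM scaled by TMM factors (read counts as a rate per library, CPM, corrected for composition), the log2 ratio of siLa over siControl was -0.25 on chromosome 1 and -0.12 elsewhere. Without siControl replicate 1 these became 0.12 and 0.16, so both changed sign. Most of the sum elsewhere came from the 2 chromosome 14 windows. The other 42 windows summed to 708, 742 and 869 CPM in siControl and 1166, 1083 and 932 CPM in siLa. Their log2 ratio was 0.46, and 0.40 without siControl replicate 1, so it kept its sign. Their share of all counts overlapped, with 0.0962% in siControl replicate 3 against 0.0937% in siLa replicate 3. These sums were not tested.

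No single U1 window passed the test between the arms. Of the 73 windows, 38 passed the filter on low counts, 19 on chromosome 1 and 19 elsewhere. At an edgeR adjusted p under 0.05, 0 were lower and 0 were higher in siLa, against 4.79% lower and 0.658% higher, 5.45% in all, among the 1064 tested windows. At an unadjusted p under 0.05, 1 U1 window was lower and 4 were higher, where all windows gave 14.2% and 9.68%. DESeq2 also called 0 U1 windows. With upper quartile factors in place of TMM, edgeR called 3 U1 windows higher, where 5.45% of all windows were called higher. The edgeR adjusted p of the 38 ran from 0.114 to 0.981. Fitted log2 fold changes of siLa over siControl ran from -1.77 to 1.05 with a median of 0.13, beside a median of -0.05 over all tested windows.

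The exact copies had fitted log2 fold changes from -0.30 (RNU1-27P) to -0.21 (RNU1-28P), with standard errors from 0.28 to 0.29 (edgeR adjusted p from 0.489 to 0.630). All 8 estimates were negative. Their 95% intervals together covered -0.93 to 0.43, so a fall of up to 0.93 or a rise of up to 0.43 on the log2 scale lay within the error. Without siControl replicate 1 the 8 estimates were all positive, from 0.04 (LOC124904613) to 0.14 (RNU1-28P), with intervals that covered -0.51 to 0.69. RNU1-1 shows this in its levels, which were 2719, 1413 and 1444 CPM in siControl and 1802, 1275 and 1649 CPM in siLa.

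Of the variants with 1 or 2 differences, RNVU1-28 and RNVU1-7 stayed close to the exact copies and RNVU1-31 stood further out in siControl replicate 1. RNVU1-28 had 2492, 1393 and 1422 CPM in siControl and 1768, 1268 and 1595 CPM in siLa. RNVU1-7 had 2006, 892 and 931 CPM and then 1184, 918 and 1041 CPM. RNVU1-31 had 864, 244 and 230 CPM and then 262, 229 and 278 CPM. In all 3 the siControl replicate 1 value was the highest and the other 5 overlapped. Relative to the exact copies, RNVU1-31 had 3.70% of their counts in siControl replicate 1 and between 1.66% and 2.12% in the other 5 libraries. The log2 fold changes of RNVU1-28, RNVU1-7 and RNVU1-31 were -0.20, -0.29 and -0.80 with all libraries and 0.13, 0.20 and 0.11 without siControl replicate 1.

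RNVU1-2A, a variant with 13 differences, depended most on that library. It had 3113, 224 and 371 counts in siControl replicates 1 to 3 and 284, 313 and 290 in siLa replicates 1 to 3. In CPM, siControl replicate 1 was 10.0 times the mean of the other 2 siControl libraries, the highest such ratio among the 1064 tested windows. Its log2 fold change was -1.77 (SE 0.77, edgeR adjusted p = 0.193), and 0.23 without siControl replicate 1 (edgeR adjusted p = 0.725). Over the alternatives its adjusted p ran from 1.37e-08, with no filter on low counts, to 0.725. Without the filter 0.476% of the 21830 windows with reads were called lower. In the authors' deposited table RNVU1-2A has a log2 fold change of -2.02 and an adjusted p of 2.13e-05, and it is the only U1 window under 0.05 there. That table calls 82 of all 53603 windows in either direction, or 0.153%, windows without reads included. RNVU1-17, with 11 differences, had a similar pattern at 893, 291 and 298 counts in siControl and 235, 213 and 331 in siLa. Its log2 fold change was -0.66, and 0.03 without siControl replicate 1.

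Another set of 4 well-read variants ran the other way. RNVU1-1 had 1241, 1347 and 1873 counts in siControl and 1658, 1733 and 1506 in siLa. RNVU1-19 had 1077, 1222 and 1721 and then 1656, 1705 and 1473. RNU1-11P had 1478, 1373 and 1905 and then 1826, 1891 and 1587. RNU1-138P had 459, 599 and 786 and then 792, 921 and 765. All 4 had their lowest scaled level in siControl replicate 1, at 0.73, 0.70, 0.86 and 0.63 times the mean of the other 2 siControl libraries.

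Their log2 fold changes were 0.39 for RNVU1-1, 0.52 for RNVU1-19, 0.41 for RNU1-11P and 0.67 for RNU1-138P. The edgeR adjusted p was 0.308, 0.230, 0.272 and 0.157 in that order. For 3 of the 4, all but RNVU1-1, the siLa libraries lay above the siControl libraries in CPM without overlap. Without siControl replicate 1 the estimates were 0.25, 0.36, 0.34 and 0.48, and all 4 of their 95% intervals included 0. Relative to the exact copies, RNU1-138P had 0.514%, 1.43% and 1.57% of their counts in siControl and 1.80%, 2.51% and 1.71% in siLa, with no overlap. RNVU1-1 had 1.39%, 3.23% and 3.73% and then 3.78%, 4.72% and 3.37%, so its arms overlapped on this measure. RNVU1-19 and RNU1-11P overlapped on it too, with 3.43% in siControl replicate 3 against 3.29% in siLa replicate 3 for RNVU1-19, and 3.80% against 3.55% for RNU1-11P. Of the 4 variants, 3 were thus separated in CPM and 1 relative to the exact copies. In CPM, 14.1% of all tested windows were higher in siLa without overlap. Relative to the exact copies, this held for 7 of the 30 other tested U1 windows. The 4 were grouped by their direction, so these counts are a description.

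**Figure D3:**
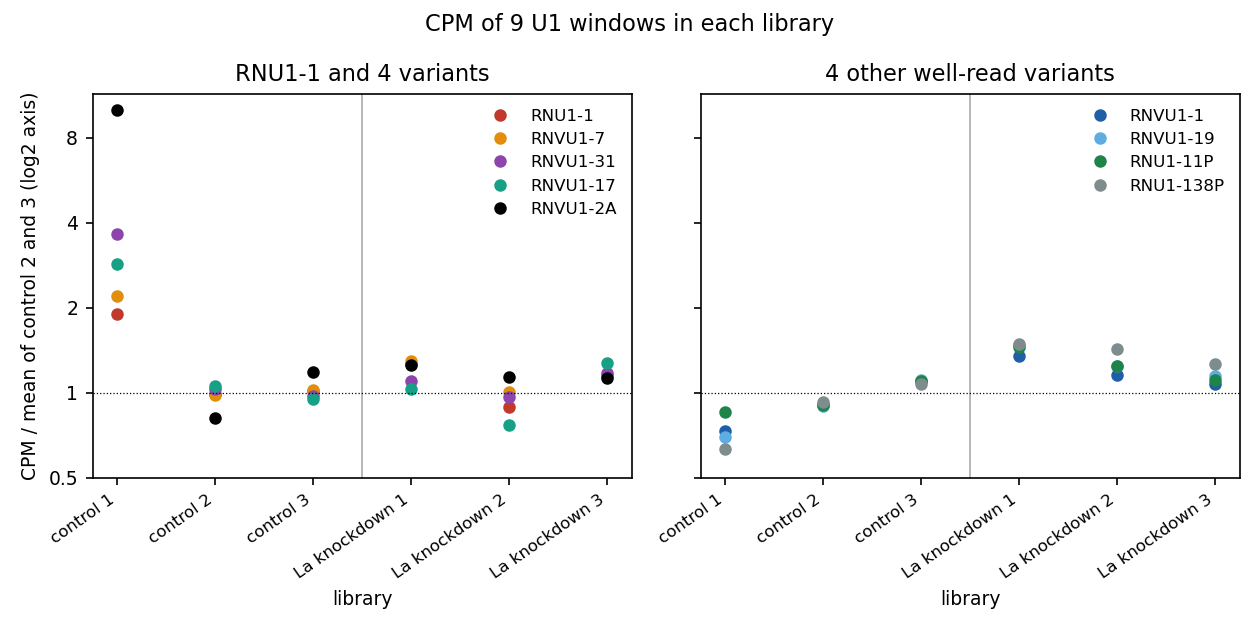
CPM of 9 U1 windows in each library, divided by the mean of siControl replicates 2 and 3 (vertical axis, log2 scale; horizontal axis, library; each point is 1 library). On the left, RNU1-1, RNVU1-7, RNVU1-31, RNVU1-17 and RNVU1-2A are highest in control 1, up to 10.0 times; on the right, the 4 other variants are lowest there.

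The remaining named windows had few reads, and their intervals were wide. On chromosome 1, RNU1-13P (524 counts in all), RNVU1-27 (510), RNU1-132P (344), RNVU1-15 (197), RNVU1-14 (197) and RNVU1-8 (196) had log2 fold changes of -0.15, 0.21, 0.79, -0.69, 0.19 and 0.01. RNVU1-15 was the 1 tested U1 window whose siLa libraries all lay below its siControl libraries in CPM, at 38, 34 and 57 counts against 11, 30 and 27. On other chromosomes, RNU1-89P (546 counts), RNU1-67P (462), RNU1-88P (422), RNU1-83P (380), RNU1-19P (370) and RNU1-16P (324) had log2 fold changes of 0.37, 0.23, -0.17, 0.33, 0.22 and 0.92. Without siControl replicate 1, RNU1-13P became 0.51 and RNU1-88P 0.39. RNU1-89P fell to 0.09 without siLa replicate 2, RNU1-83P to 0.10 without siLa replicate 1 and RNU1-19P to 0.04 without siLa replicate 3. RNVU1-15 lay between -0.91 and -0.44 when 1 library was left out. None of these 12 was called, and the edgeR adjusted p was lowest for RNU1-16P, at 0.141.

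Outside chromosomes 1 and 14, 17 U1 windows were tested, 16 of them with a matched transcript, and 0 were called. The estimate was positive in 16 of the 17, with a median of 0.41, beside 46.8% positive and a median of -0.05 over all tested windows. Without a filter on low counts it was positive in 11 of the 17, beside 53.1% of all windows. With library size alone it was positive in 14, beside 43.2%, and with upper quartile factors in 17, beside 64.4%. RLE factors, DESeq2, the replicate block and the fit without siControl replicate 1 each gave 16, beside 47.3% to 51.3%. Leaving out any other library gave 14 or 15, beside 45.9% to 49.4%. These fits reuse the same libraries, and the 17 windows share scaling and can share reads. They are therefore not 17 independent results, and the count was not tested. On chromosome 1, the 9 tested divergent copies had 5 positive and 4 negative estimates. RNU1-21P, singled out after its values were seen because it had the lowest adjusted p of any U1 window, had 13, 12 and 21 counts in siControl and 22, 32 and 26 in siLa (log2 fold change 1.03, SE 0.34, edgeR adjusted p = 0.114). Over the 38 tested U1 windows, 8 had all siLa libraries above all siControl libraries in CPM, which is 21.1%, beside 14.1% of all tested windows. The opposite held for 1 window, or 2.63%, beside 17.9%. Without siControl replicate 1 the 95% intervals of all 38 included 0.

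**Figure D4:**
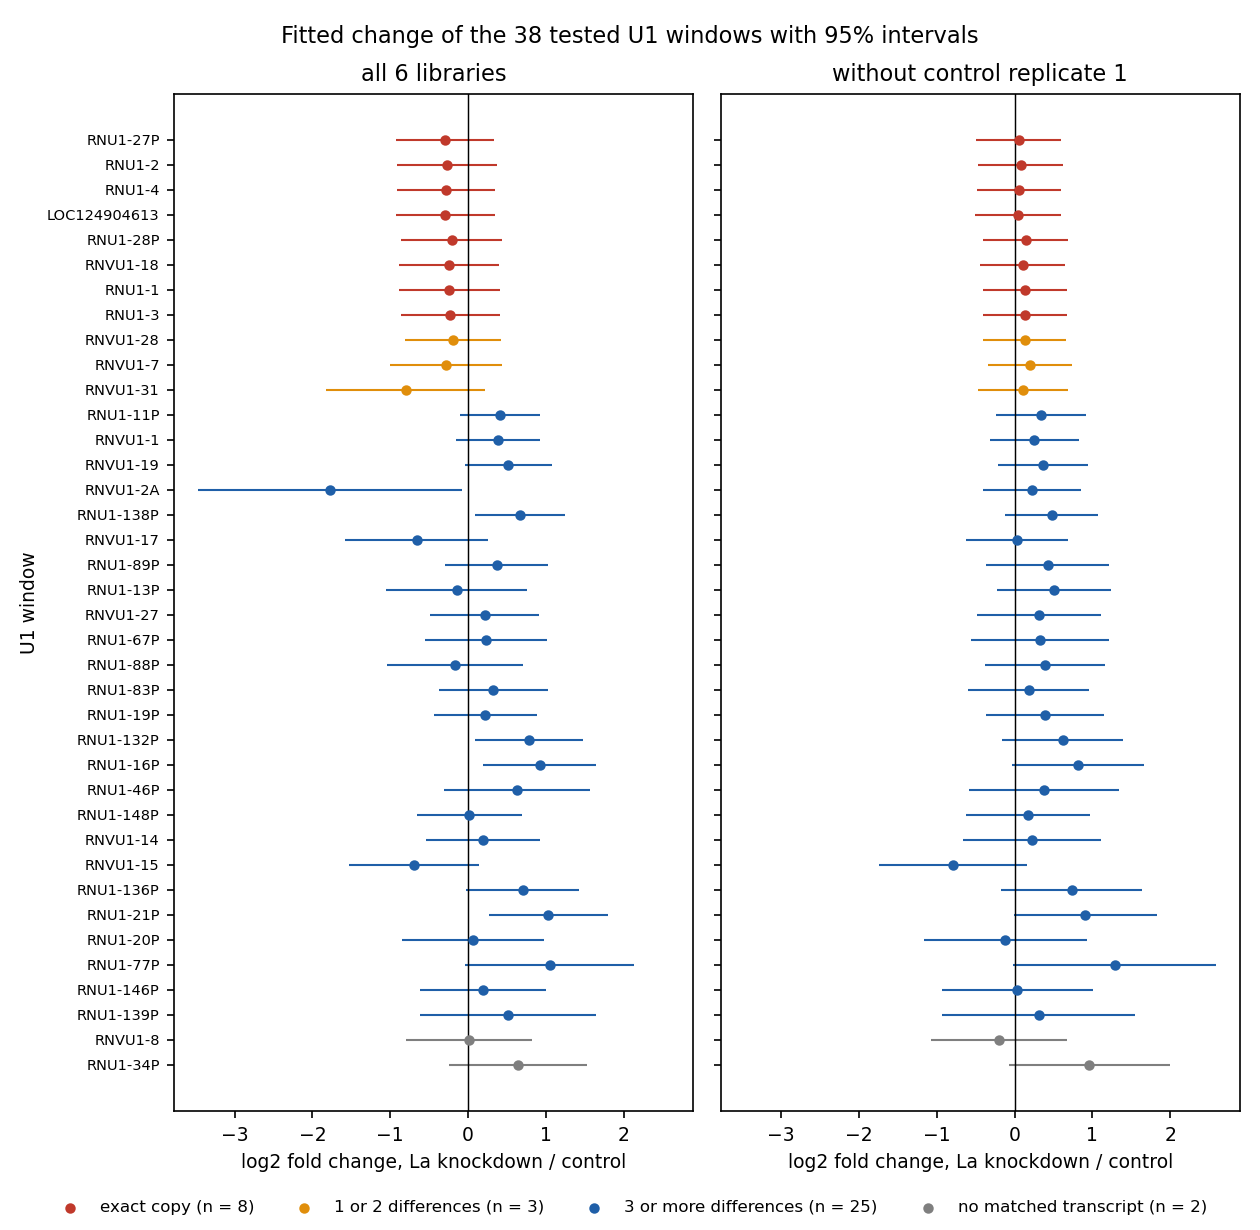
Fitted log2 fold change of La knockdown over control (horizontal axis) with 95% intervals from the edgeR fit for the 38 tested U1 windows (vertical axis), ordered by similarity to RNU1-1 and then by reads. With all 6 libraries the exact copies lie left of 0, and without control replicate 1 they lie right of 0. All intervals in the second panel cross 0.

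The 35 U1 windows under the filter had 79 counts or fewer over the 6 libraries, with a median of 9, and 7 of them had none. A window with 0 counts in a library can hide up to 3 counts there, counting error only. On chromosome 1 the highest were RNVU1-6, with 26, 9 and 8 counts in siControl and 6, 5 and 8 in siLa, RNU1-122P with 43 in all, and RNVU1-30 with 41. Elsewhere they were RNU1-63P, with 26, 8 and 9 and then 8, 20 and 8, RNU1-65P with 34 in all, and RNU1-106P with 28. RNVU1-6 and RNU1-63P both had their highest siControl count in replicate 1.

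Windows of other snRNAs gave no call either. The list holds spliceosomal snRNAs and U7, which acts in 3′ end processing of histone mRNA. RNA polymerase II makes U2, U4, U5, U7, U11, U12 and U4atac, though the polymerase at each window was not measured. Of 136 windows with these labels, 49 were tested. At an edgeR adjusted p under 0.05, 0 were lower or higher, beside 4.79% and 0.658% of all tested windows. With p unadjusted, 1 was lower under 0.05, the U7 window, and 2 were higher, both U2, where all windows gave 14.2% and 9.68%. Of 102 windows labelled U6 or U6atac, snRNAs that RNA polymerase III makes, 9 were tested and 0 were called (0 at an unadjusted p under 0.05). Over the 34 tested U2 windows the log2 fold change had a median of -0.09. The share of U2 windows was 5.36%, 3.12% and 3.23% in siControl and 2.90%, 2.77% and 3.06% in siLa, so all siLa values lay below all siControl values, by little for siControl replicate 2, and siControl replicate 1 was again the highest. The U5 share was 2.87%, 2.91% and 1.92% and then 1.80%, 1.04% and 2.47%, with overlap. The U7 share was 0.0627%, 0.0801% and 0.110% in siControl and 0.0447%, 0.0495% and 0.0511% in siLa, without overlap and with its highest value in siControl replicate 3.

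Start-site windows of genes for U1 proteins and for making U1 were too thinly read to test. The list held 25 genes, among them SNRNP70, SNRPA and SNRPC (the U1-specific proteins), the Sm proteins, SNAPc subunits, SMN1 and the Gemins (Sm assembly), PHAX (export), TOE1 (3′ trimming) and SSB. A window was found for 23 of them, and 0 of their 37 windows passed the filter. The highest total was 44 counts at an SNRNP70 window, with 10, 3 and 10 in siControl and 11, 4 and 6 in siLa.

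The authors' deposited comparison can be set beside the fit. In the authors' deposited table, the log2 fold changes of the 38 U1 windows tested here ran from -2.02 to 0.75, with 24 below 0 and 14 above. They were lower than those fitted here by a median difference of -0.28. Against the fit without a filter on low counts, the median difference was -0.02 and the 38 differences ran from -0.06 to 0.04. The authors' comparison holds values for all 73 U1 windows, those without reads included, so no filter on low counts had removed them. Its scaling is not given in the sources used here.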

How the data were processed

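Small RNA of 3 siControl and 3 siLa HEK293T libraries was isolated (mirVana PARIS), its ends were treated with a phosphatase and then a kinase, and NEBNext libraries were made, per the labels' protocols. The authors deposited raw counts per 400 bp window, per the file headers. Their own comparison was also deposited. Its log2 columns are the fold change and the mean CPM, its score is the F statistic, and each p-value has an adjusted form, per the file headers. Trim Galore, Bowtie2, bedtools, edgeR and GRCh38 are named in the submitters' processing notes. Strand use and multi-mapping rules are not given in the sources used here, so antisense reads cannot be separated. The U1 windows of RNVU1-27 and U1_53124 overlap a window of another label.

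Counts were fitted with edgeR 4.0.16 in R 4.3.3 (quasi-likelihood, filterByExpr defaults, TMM factors, arm as the single term) on the whole table, with Benjamini-Hochberg adjustment over 1064 windows and a threshold of 0.05. Standard errors and 95% intervals were derived from the F statistic. CPM are scaled by TMM factors. Each p-value sets the difference between the arms against the variation among these 6 libraries within their arms, estimated with information shared across windows. Transcripts were aligned globally to RNU1-1 with Biopython 1.88 (match 1, mismatch -1, gap opening -2, gap extension -0.5). The fit was tested on simulated data, where it recovered 97.9% to 99.5% of tested windows changed by 2 on the log2 scale in 3 sets of 1031 to 1035 tested windows. All simulated windows shared a single dispersion of 0.08, and no library was made to deviate. The recovery therefore does not tell how often smaller changes would be found.

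Named were all tested U1 windows of chromosome 1, the 10 with the most counts elsewhere, and up to 3 untested ones from each. The members, lists and tests were chosen with earlier results of these data known. Alternatives were other scalings (RLE, upper quartile, none), DESeq2 1.42.0, another filter (none, or mean counts of 20 and above), merging of rows with the same counts, the replicate number as a block, each library left out in turn, and other denominators for shares. The sequence classes and the limit of 1000 counts were set after the values were seen. Figures were drawn with matplotlib 3.10.9.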

Additional observations from a re-analysis of the deposited data

How the results depend on the processing

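Over the named windows, 361 of 406 alternative values kept their direction and side of the threshold, 4 passed the threshold and 41 changed sign. The causes were not tested beyond what each alternative changes itself. U1 windows called higher, 0 with TMM factors, became 3 with upper quartile factors (RNU1-21P, RNU1-16P and RNU1-138P, edgeR adjusted p from 0.0495 to just under 0.05), which moved the median of all windows from -0.05 to 0.26 and called 5.45% of all windows higher. U1 windows called lower, 0 with the filter, became 2 without it (RNVU1-2A at -2.06, RNVU1-31 at -1.07). Windows called higher, 7 in all, became 23 by DESeq2, 58 with upper quartile factors, 20 with the replicate block, 4 when no filter was used and 4 when windows needed mean counts of 20. Windows called lower, 51 in all, became 104 without a filter and 88 with the replicate block. The lower direction took 87.9% of calls under TMM, 38.3% under upper quartile scaling and 76.8% by DESeq2. Leaving out 1 library gave 0 to 21 higher and 0 to 98 lower windows, with both lowest counts without siLa replicate 1 and both highest without siLa replicate 3. No U1 window was called in these 6 fits, all made with the filter.

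Whether the replicate numbers pair the libraries was not settled. The deviations of same-numbered libraries correlated at 0.15, 0.24 and -0.47, and differently numbered libraries were not compared. With the replicate block 0 U1 windows were called, and RNU1-13P changed sign to 0.022. It moved 6 other named windows by over 1.5 times, RNVU1-2A from -1.77 to -0.79, RNVU1-31 from -0.80 to -0.50, RNVU1-7 from -0.29 to -0.18, RNU1-88P from -0.17 to -0.035, RNU1-67P from 0.23 to 0.15 and RNVU1-8 from 0.014 to 0.022.

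With upper quartile factors log2 fold changes became 0.098 (RNU1-1), 0.11 (RNU1-3), 0.057 (RNU1-4), 0.063 (RNU1-2), 0.088 (RNVU1-18), 0.043 (LOC124904613), 0.040 (RNU1-27P), 0.12 (RNU1-28P), 0.14 (RNVU1-28), 0.056 (RNVU1-7), 0.19 (RNU1-13P) and 0.16 (RNU1-88P). Without a filter they became -0.080 (RNVU1-14), -0.24 (RNVU1-8), -0.054 (RNVU1-27), -0.046 (RNU1-67P) and -0.024 (RNU1-19P). RNVU1-8 became -0.092 with library size alone and -0.0018 when windows needed mean counts of 20. Leaving out 1 library gave ranges from -0.42 to 0.14 (RNU1-1), -0.39 to 0.13 (RNU1-3), -0.46 to 0.059 (RNU1-4), -0.47 to 0.079 (RNU1-2), -0.42 to 0.10 (RNVU1-18), -0.48 to 0.043 (LOC124904613), -0.49 to 0.051 (RNU1-27P), -0.38 to 0.14 (RNU1-28P), -0.36 to 0.13 (RNVU1-28), -0.50 to 0.20 (RNVU1-7), -1.11 to 0.11 (RNVU1-31), -0.93 to 0.032 (RNVU1-17), -2.27 to 0.23 (RNVU1-2A), -0.42 to 0.51 (RNU1-13P), -0.46 to 0.39 (RNU1-88P), -0.084 to 0.31 (RNVU1-14), -0.20 to 0.26 (RNVU1-8), -0.077 to 0.35 (RNVU1-27) and -0.15 to 0.45 (RNU1-67P). Of the 41 sign changes, 16 came without siControl replicate 1.

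The summed change on chromosome 1 and elsewhere became 0.092 and 0.22 with upper quartile factors. The share difference outside chromosome 1, -0.058 percentage points, became 0.017 when counts of rRNA windows were left out. The filter on low counts left 35 of 73 U1 windows untested in the main fit, so changes of any size there were not assessed by it.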
